A study of Mus musculus with 6 samples.

Results

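The genes described here encode translation initiation factors (eIF), translation elongation factors (eEF) and aminoacyl-tRNA synthetases. They were chosen by symbol from the array annotation. The choice took each probe set annotated to a single gene whose symbol starts with Eif or Eef, or with Eprs, or is a capital letter followed by ars and, where present, 1, 2, a or b. Kinases of eIF2 (Eif2ak), the eIF4E-binding proteins (Eif4ebp) and the X- and Y-linked Eif genes ending in x or y were left out. This gave 64 of the 8251 genes with a single symbol on the array, read by 83 probe sets. A few are not factors themselves but act on factors, such as Eef2k, the kinase of eEF2. No signal threshold chose the members, but the group was proposed with results of this comparison known. Counts and adjusted p values of its members are therefore a description of these livers, and nothing about the group as a whole is read from them.

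Fetal livers of 3 Rb null embryos and 3 wild type embryos were compared, all untreated and taken at embryonic day 12.5 from matings of 129sv mice heterozygous for Rb. Each liver was dissected, disaggregated in saline and read on an Affymetrix mouse array of its own, which makes n = 3 embryos in either genotype. The labels give no Rb allele, sex, litter or batch. An Rb null embryo lacks the gene in each of its cells, so the livers do not separate a change made in the liver from one made elsewhere in the embryo. Values are MAS5 signals, the array software's brightness of a probe set on a linear scale, and differences, taken as Rb null minus wild type, are in units of log2(signal + 50.02) and given ± SE. That offset makes the differences of dim genes look smaller. A gene was called higher or lower when the limma p value, adjusted over all tested probe sets, was below 0.05.

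In translation initiation, eIF2 carries the initiator tRNA to the small ribosomal subunit, eIF2B reloads eIF2 with GTP, eIF3 holds the subunit and the mRNA together, and the eIF4 factors bind and unwind the capped end of the mRNA. Elongation factors then deliver each charged tRNA and move the ribosome along, and a synthetase for each amino acid charges the tRNAs. The fetal liver is the chief blood-forming organ of the mouse embryo at this stage. Its erythroblasts make globin at a high rate, and the haem-regulated kinase of eIF2 is known to tie their initiation rate to haem supply.

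The genotype labels were checked on Rb1. The brighter Rb1 probe set read 139, 142 and 127 in Rb null livers, against 791, 754 and 706 in wild type livers (-2.10 ± 0.09, limma adjusted p = 7.8e-06). The Rb null mean of 136 lay below the signal filter of 150.1, so this probe set was tested only through its wild type signals and the size of the difference is uncertain. The reading checks the labels only if these probes lie inside the deleted stretch, which the labels do not describe. Arrays of the same genotype correlated at r of 0.985 to 0.990 and arrays of different genotypes at 0.979 to 0.984, over tested probe sets that share their livers. The median signal was 198 to 203 on Rb null arrays and 177 to 187 on wild type arrays. The 3′ to 5′ signal ratio of the Gapdh control, a measure of RNA integrity, was 0.829 to 0.888 on Rb null arrays and 0.915 to 0.924 on wild type arrays. The same ratio of the actin control leaned the other way, at 1.19 to 1.31 on Rb null arrays and 1.12 to 1.21 on wild type arrays. Their part in the results below was not tested.

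Most of these genes leaned lower in Rb null livers, each by little. Of the 57 genes bright enough to be tested, 12 fell, 1 rose and the other 44 stayed short of the threshold, where 9.50% of all 5273 tested genes fell and 13.1% rose. The log2 difference was negative in 45 and positive in 12, from -0.52 for Eif5b to 0.26 for Eif4g3, with a median of -0.12 against 0.02 over all tested genes. All 3 Rb null livers lay below all 3 wild type livers in 23 genes and above them in 4, and the genotypes overlapped in 30. Over all tested genes the corresponding shares were 17.6% below and 23.5% above. The 12 genes that fell were Eif5b, Eif2b4, Eif2s2, Rars, Tars, Nars, Hars, Eef1d, Eif3d, Eif2b2, Eif5 and Eif3j1, and the gene that rose was Qars. In whole livers, fewer cells of a type and less RNA per cell cannot be told apart.

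The median deviation of the tested members from the wild type mean was -0.14, -0.09 and -0.11 in Rb null embryos 1 to 3, where over all tested genes it was 0.030, 0.026 and 0.020. The wild type embryos lie near 0 on this measure by construction. Over the 34 tested factors alone these medians were -0.13, -0.13 and -0.11 in Rb null embryos, and over the 23 tested synthetases they were -0.16, -0.08 and -0.09. Replicates were tight, with a median coefficient of variation over the members of 6.14% in Rb null livers and 5.76% in wild type livers.

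**Figure D1:**
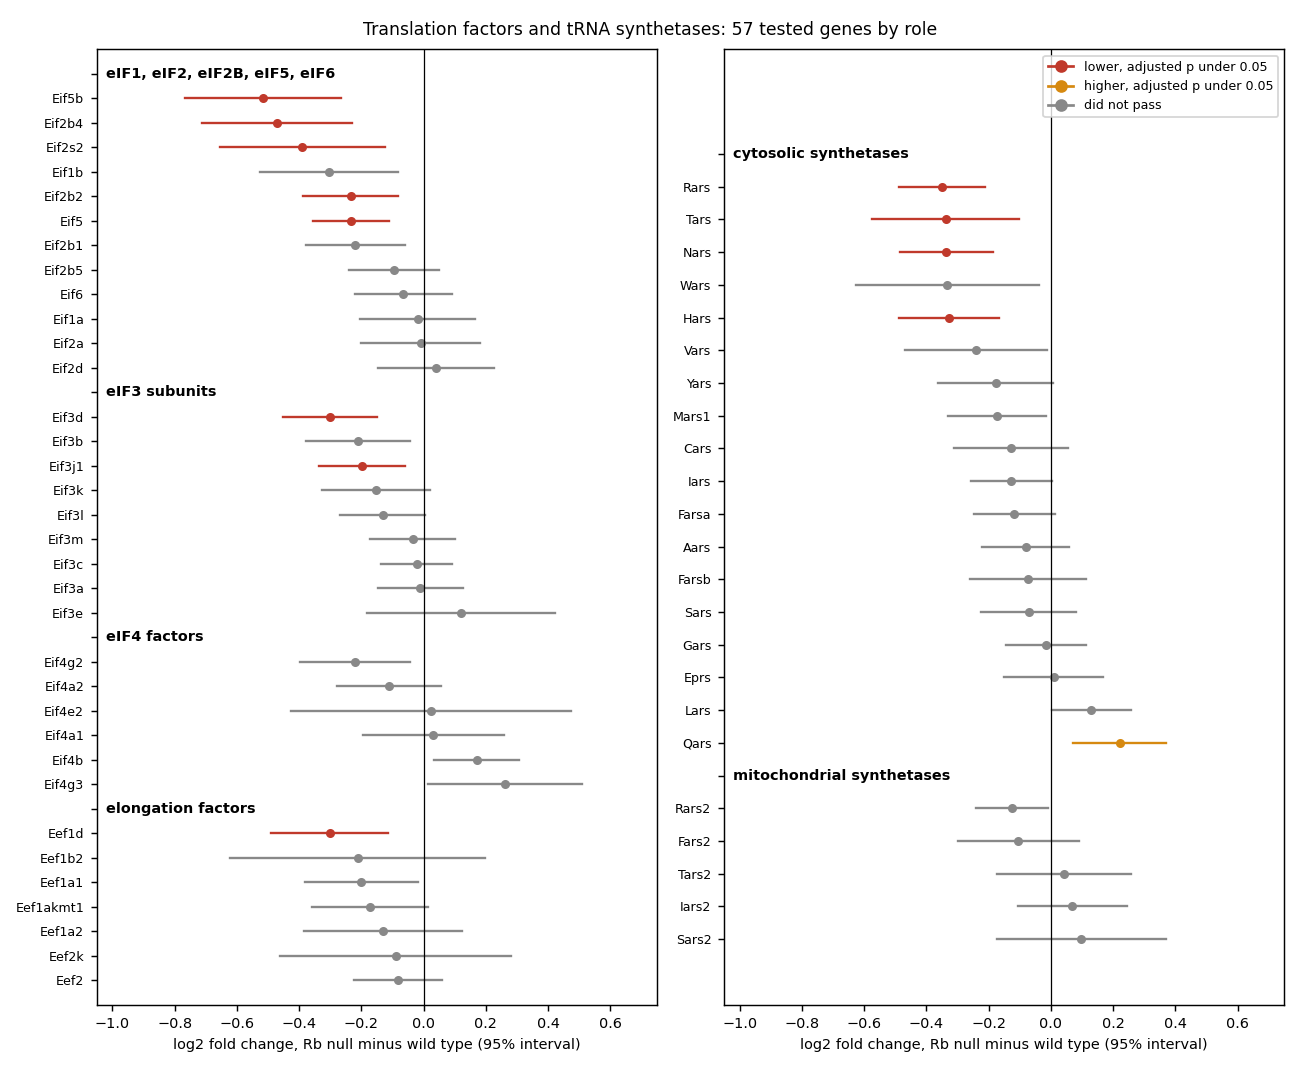
Log2 difference (Rb null minus wild type, x axis) with its 95% interval for the 57 tested genes, grouped by role and ordered within each role. Red marks the 12 genes that fell, orange Qars, which rose, and grey the 44 that did not pass the test.

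Initiation factors other than eIF3 and eIF4 held 5 of the 12 falls. Of 12 genes for eIF1, eIF2, eIF2B, eIF5, eIF5B, eIF6 and their relatives, all of which were tested, 5 fell, none rose and 7 did not pass (median -0.23). All Rb null livers lay below all wild type livers in 8 of the 12. Over all tested genes 9.50% fell, 13.1% rose and 17.6% had all Rb null livers below. The 5 that fell were Eif5b, Eif2b4, Eif2s2, Eif2b2 and Eif5, of which the Eif2s2 fall rested on 1 of its 2 probe sets.

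Eif5b encodes the GTPase that joins the large ribosomal subunit to the initiation complex. Its signals were 542, 668 and 706 in Rb null livers, against 903, 856 and 1036 in wild type livers. The genotypes did not overlap, and the difference of -0.52 ± 0.11 was the largest among the tested members (limma adjusted p = 0.014). The call held under each of the 17 alternative settings, with adjusted p values up to 0.047. A second Eif5b probe set was too dim to test.

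The exchange factor eIF2B has 5 subunits, and Eif2b1, Eif2b2, Eif2b4 and Eif2b5 were on the array. Eif2b4, the delta subunit, read 998, 1098 and 1196 in Rb null livers, against 1390.4, 1454 and 1793 in wild type livers. It fell by 0.47 ± 0.10 on the log2 scale (limma adjusted p = 0.016), and the genotypes did not overlap. The call was lost when Rb null embryo 1 (adjusted p = 0.061) or Rb null embryo 2 (0.053) was left out, and the probe set carries the suffix that marks probes shared by several transcripts. Eif2b2, the beta subunit, read 794, 760.4 and 738 in Rb null livers, against 891, 960.1 and 872 in wild type livers. Its difference was -0.23 ± 0.07 (limma adjusted p = 0.040) without overlap, but the call was lost, among other settings, on leaving out any of the 6 embryos (adjusted p from 0.067 to 0.10) and with no filter (0.055) or no trend (0.054).

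Eif2b1, the alpha subunit to which phosphorylated eIF2 is known to bind, read 672, 711 and 741 in Rb null livers, against 812, 805 and 881 in wild type livers. These groups did not overlap either, but the difference of -0.22 ± 0.07 lay just outside the threshold (limma adjusted p = 0.056). It was inside the threshold after quantile normalization, after cyclic loess normalization and with the stricter filter (adjusted p from 0.040 to 0.046), and after median scaling (0.016). Eif2b5, the catalytic epsilon subunit, had -0.10 ± 0.06 on its brighter probe set and 0.01 ± 0.11 on another, and neither passed. It was picked for its place in the complex after its values were seen.

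Eif5, the GTPase-activating protein of eIF2, read 1547, 1651 and 1656 in Rb null livers, against 1890.4, 1925 and 1911 in wild type livers. The wild type livers lay within 35 units of each other (SD 17.6), all above the Rb null livers, and the difference was -0.23 ± 0.05 (limma adjusted p = 0.018). The call ended when Rb null embryo 1 (0.063), wild type embryo 3 (0.058) or wild type embryo 1 (0.05003) was removed, where the values are adjusted p. Eif1b, a close relative of the start-codon factor eIF1, read 2291, 2523 and 2476 in Rb null livers, against 2592, 3426 and 3069 in wild type livers. Its difference of -0.30 ± 0.10 did not pass (limma adjusted p = 0.056), although the genotypes did not overlap. It passed, among other settings, after median scaling (adjusted p = 0.012), with the stricter filter (0.047) and without wild type embryo 1 (0.015). Eif1a (-0.02 ± 0.08), Eif2a (-0.01 ± 0.08) and Eif2d (0.04 ± 0.08) were named after their values were seen. Among the genes for eIF1, eIF2, eIF2B, eIF5, eIF5B, eIF6 and their relatives, their differences were nearest to 0.

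Eif2s2, the beta subunit of eIF2, was read differently by its probe sets. The brighter set read 440.1, 604 and 499 in Rb null livers, against 642, 755 and 660.5 in wild type livers (-0.39 ± 0.12, limma adjusted p = 0.044), and there the genotypes did not overlap. The other set read 412, 532 and 443 in Rb null livers, against 435, 479 and 466 in wild type livers, which overlapped fully (0.00 ± 0.10). With the mean of its probe sets Eif2s2 had -0.19 (adjusted p = 0.22). It was no longer called with no filter (0.084), with no trend (0.059) and without any embryo except Rb null embryo 2 (0.070 to 0.13). The annotation used here does not place either set on the transcript.

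**Figure D2:**
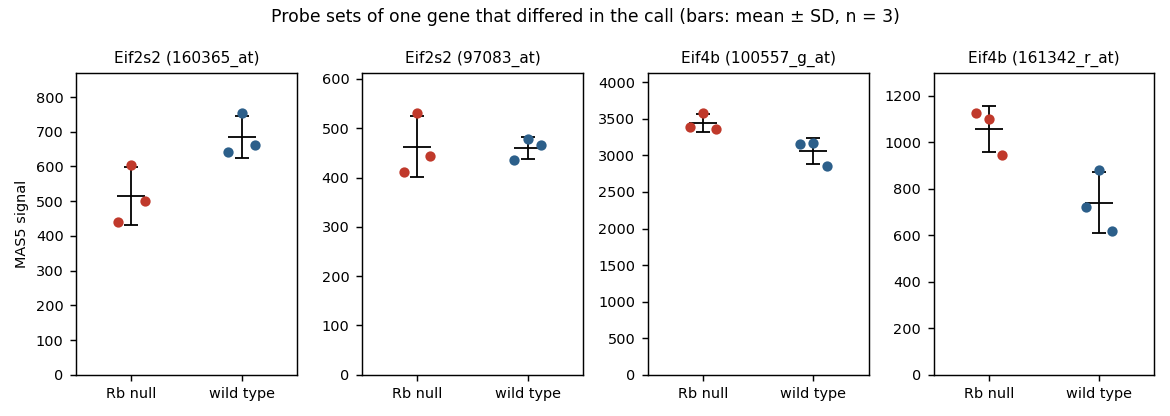
MAS5 signal (y axis, linear, from 0) of each embryo for the pairs of probe sets of Eif2s2 and Eif4b that differed in the call, with bars for mean ± SD (n = 3 embryos), Rb null left and wild type right in each panel. The genotypes are apart in the leftmost panel (the brighter Eif2s2 set) and in both Eif4b panels, and overlap for the other Eif2s2 set.

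Of the eIF3 subunits, Eif3d and Eif3j1 fell. Of 10 on the array 9 were tested, of which 2 fell and 7 did not pass (median -0.13). Among all tested genes 9.50% fell, and 24.6% of the brightest 1318, where Eif3d and Eif3j1 lie. Eif3d, a subunit that can itself bind the mRNA cap, read 4147, 3924 and 4222 in Rb null livers, against 4640.0, 5298 and 5264 in wild type livers. All Rb null livers were below all wild type livers, and the difference was -0.30 ± 0.07 (limma adjusted p = 0.015). The call was lost after cyclic loess normalization (-0.17, adjusted p = 0.061), without Rb null embryo 2 (0.054) and without wild type embryo 3 (0.055). Eif3j1, a loosely held subunit near the decoding site, read 2734, 2635 and 2774 in Rb null livers, against 3068, 2955 and 3352 in wild type livers.

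The Eif3j1 groups did not overlap, but at -0.20 ± 0.06 it was the call nearest to the threshold (limma adjusted p = 0.0498). It was lost after quantile normalization (-0.10, adjusted p = 0.20), after cyclic loess normalization (-0.11, 0.19), with the smaller offset (0.0503), with no filter (0.083), with no trend (0.097) and without any embryo except wild type embryo 2 (0.073 to 0.16). Eif3b, a scaffold subunit, had 2918, 2645 and 2584 in Rb null livers, against 3079, 3423 and 2953 in wild type livers. It did not pass (-0.21 ± 0.07, limma adjusted p = 0.074) although the groups did not overlap, and after median scaling it did (adjusted p = 0.0067). Eif3l had 6194, 5711 and 6375 in Rb null livers, against 6599.7, 6445 and 6993 in wild type livers (-0.13 ± 0.06, adjusted p = 0.16), also without overlap. Its difference turned to 0.030 after quantile and 0.034 after cyclic loess normalization, so its direction depends on the scaling. Eif3a (-0.01 ± 0.06) and Eif3c (-0.02 ± 0.05), core subunits named after their values were seen, and Eif3e (0.12 ± 0.13), the tested subunit with a positive difference, did not pass.

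The eIF4 factors, which act at the cap, showed no call on their brightest probe sets. Of 9 on the array 6 were tested and none passed (median 0.03), with 2 negative and 4 positive differences. Eif4b, the cofactor of the eIF4A helicase, had signals of 3395, 3586 and 3361 in Rb null livers, against 3155, 3168 and 2855 in wild type livers. Every Rb null liver was above every wild type liver, but 0.17 ± 0.06 did not pass (limma adjusted p = 0.076). A dimmer Eif4b probe set read 1128, 1102 and 945 in Rb null livers, against 719.7, 879 and 619 in wild type livers, and rose by 0.50 ± 0.12 (adjusted p = 0.024). With the mean of its tested probe sets Eif4b rose by 0.33 (adjusted p = 0.026). It also passed after quantile (0.27, 0.024) and cyclic loess normalization (0.27, 0.024). Both tested sets carry suffix letters, so Eif4b was not tested when such sets were left out. Its other sets, with signals from 3.1 to 11.4, were too dim to test.

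Eif4g2, an eIF4G relative that lacks the eIF4E-binding part, had 642, 682 and 693 in Rb null livers, against 864, 736 and 779 in wild type livers (-0.22 ± 0.08, limma adjusted p = 0.076). The groups did not overlap, and it passed after quantile normalization (adjusted p = 0.041), cyclic loess normalization (0.047) and median scaling (0.018). Eif4a2, an RNA helicase, had 4568, 5460.1 and 5270.0 in Rb null livers, against 5632, 5289.9 and 5577 in wild type livers. Its groups overlapped (-0.11 ± 0.07, adjusted p = 0.31), and its difference turned to 0.046 after quantile and 0.036 after cyclic loess normalization. Eif4e, the cap-binding protein itself, was below the signal filter in both genotypes.

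Of the 9 genes for elongation factors, eIF5A and their modifiers, 7 were tested, of which 1 fell and 6 did not pass (median -0.17). Each of the 7 had a negative difference under the deposited scaling. Among all 5273 tested genes 9.50% fell, and 2435 had a negative difference. Eef1d, the delta subunit of the exchange factor of eEF1A, read 1599, 1358 and 1334 in Rb null livers, against 1729, 1896 and 1692 in wild type livers. The genotypes did not overlap, and the difference was -0.30 ± 0.08 (limma adjusted p = 0.033). The call was lost after quantile (adjusted p = 0.053) and cyclic loess normalization (0.062), with no filter (0.062), with no trend (0.058) and without any embryo except Rb null embryo 1 (0.058 to 0.11). Eef1a1, which delivers charged tRNAs to the ribosome, had 12973, 11555 and 13816 in Rb null livers, against 13564, 15093 and 15388 in wild type livers. The groups overlapped and it did not pass (-0.20 ± 0.08, adjusted p = 0.11). Its difference was 0.014 after quantile and 0.042 after cyclic loess normalization but -0.34 after median scaling (adjusted p = 0.021), so its direction depends on the scaling.

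Eef1akmt1, a methyltransferase of eEF1A, had 434, 512 and 482 in Rb null livers, against 555, 534 and 537 in wild type livers (-0.17 ± 0.08, limma adjusted p = 0.17). The groups did not overlap, and it passed after median scaling (adjusted p = 0.036). Eef2, the translocase (-0.08 ± 0.06), and its kinase gene Eef2k (-0.09 ± 0.16), both named after their values were seen, did not pass, and their genotypes overlapped.

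Of the 64 genes, 7 had no probe set bright enough to test. They were Kars, Eef1g, Eif5a, Eif3f, Eif4e, Eif4enif1 and Eif4h. Eef1g, for example, stayed between 0.900 and 4.90 over the 6 arrays. Cells need most of these genes to make protein, so a dim reading here describes the probe set and does not show that the transcript was absent. Eif3f read 142, 96.0 and 109 in Rb null livers, against 193, 157 and 196 in wild type livers, without overlap and without a test.

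Among the synthetases that charge tRNAs in the cytosol, 18 of 19 were tested, of which 4 fell, 1 rose and 13 did not pass (median -0.13). Over all tested genes 9.50% fell and 13.1% rose, and of the brightest 1318 of them 24.6% fell and 8.57% rose. The 4 synthetases that fell charge the tRNAs of arginine, asparagine, histidine and threonine, and the 1 that rose charges that of glutamine. Rars, the arginyl-tRNA synthetase, read 1924, 2052 and 1944 in Rb null livers, against 2389, 2680.4 and 2527 in wild type livers (-0.35 ± 0.06, limma adjusted p = 0.0058). Nars, the asparaginyl-tRNA synthetase, read 1471, 1604 and 1506 in Rb null livers, against 2002, 1806 and 2014 in wild type livers (-0.34 ± 0.06, adjusted p = 0.0093). Neither gene had overlapping genotypes, and both calls held under all 17 alternative settings, with adjusted p values up to 0.028 for Rars and 0.039 for Nars.

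Hars, the histidyl-tRNA synthetase, read 1198, 1087 and 1111 in Rb null livers, against 1539.5, 1417 and 1344 in wild type livers. It fell by 0.33 ± 0.07 without overlap (limma adjusted p = 0.014), and 1 of 17 alternatives ended the call, the one without Rb null embryo 2 (adjusted p = 0.052). Tars, the threonyl-tRNA synthetase, read 717, 668 and 551 in Rb null livers, against 830.4, 885 and 762 in wild type livers (-0.34 ± 0.10, adjusted p = 0.048). Its groups did not overlap, but the call was lost when any embryo but Rb null embryo 1 was left out (adjusted p from 0.063 to 0.12), with no filter (0.088) and with no trend (0.067).

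Qars, the glutaminyl-tRNA synthetase, read 2039, 1962 and 2189.5 in Rb null livers, against 1688, 1732 and 1873 in wild type livers. All Rb null livers lay above all wild type livers, and the difference was 0.22 ± 0.06 (limma adjusted p = 0.044). The call was lost after median scaling (0.09, adjusted p = 0.45), with no filter (0.072), with no trend (0.081) and without any embryo except wild type embryo 3 (0.059 to 0.13).

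Wars, the tryptophanyl-tRNA synthetase, had 3 tested probe sets with differences of -0.33 ± 0.13, -0.36 ± 0.13 and -0.21 ± 0.16, of which none passed. Its brightest set had 859, 1226 and 1030.3 in Rb null livers, against 1301, 1167 and 1471 in wild type livers, and the genotypes overlapped (limma adjusted p = 0.10). It passed after median scaling (-0.46, adjusted p = 0.037) and without Rb null embryo 2 (-0.45, 0.048). Mars1, the methionyl-tRNA synthetase, had 1175, 1252 and 1324 in Rb null livers, against 1502, 1341 and 1403 in wild type livers without overlap (-0.17 ± 0.07, adjusted p = 0.11). Iars, the isoleucyl-tRNA synthetase, had 2880.2, 2896 and 3179 in Rb null livers, against 3174, 3265 and 3345 in wild type livers, with 1 Rb null liver inside the wild type range (-0.13 ± 0.06, adjusted p = 0.15). After median scaling Mars1 (adjusted p = 0.023) and Iars (0.025) passed. Eprs (0.01 ± 0.07) and Gars (-0.02 ± 0.06), named after their values were seen, had differences near 0.

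As a set, the 5 synthetases of mitochondria did not lean lower. None passed, the median was 0.04, and 2 differences were negative and 3 positive. Rars2, the mitochondrial counterpart of Rars, had 2319, 2351 and 2262 in Rb null livers, against 2570.0, 2564 and 2436 in wild type livers. The groups did not overlap, but -0.12 ± 0.05 did not pass (limma adjusted p = 0.12). After median scaling it did (adjusted p = 0.011). Fars2, which charges mitochondrial phenylalanine tRNA, had 483, 558 and 572 in Rb null livers, against 555, 577 and 610.1 in wild type livers, with overlap (-0.10 ± 0.08, adjusted p = 0.42). Apart from Rars2, the mitochondrial synthetases had mean signals between 313 and 1296. All tested genes had medians of 0.07 from 313 to 633 and 0.02 from 633 to 1296. In the brighter range that held Rars2 the median was -0.09. Whether mitochondrial and cytosolic synthetases differ in their change, and the part of brightness in it, was not tested.

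**Figure D3:**
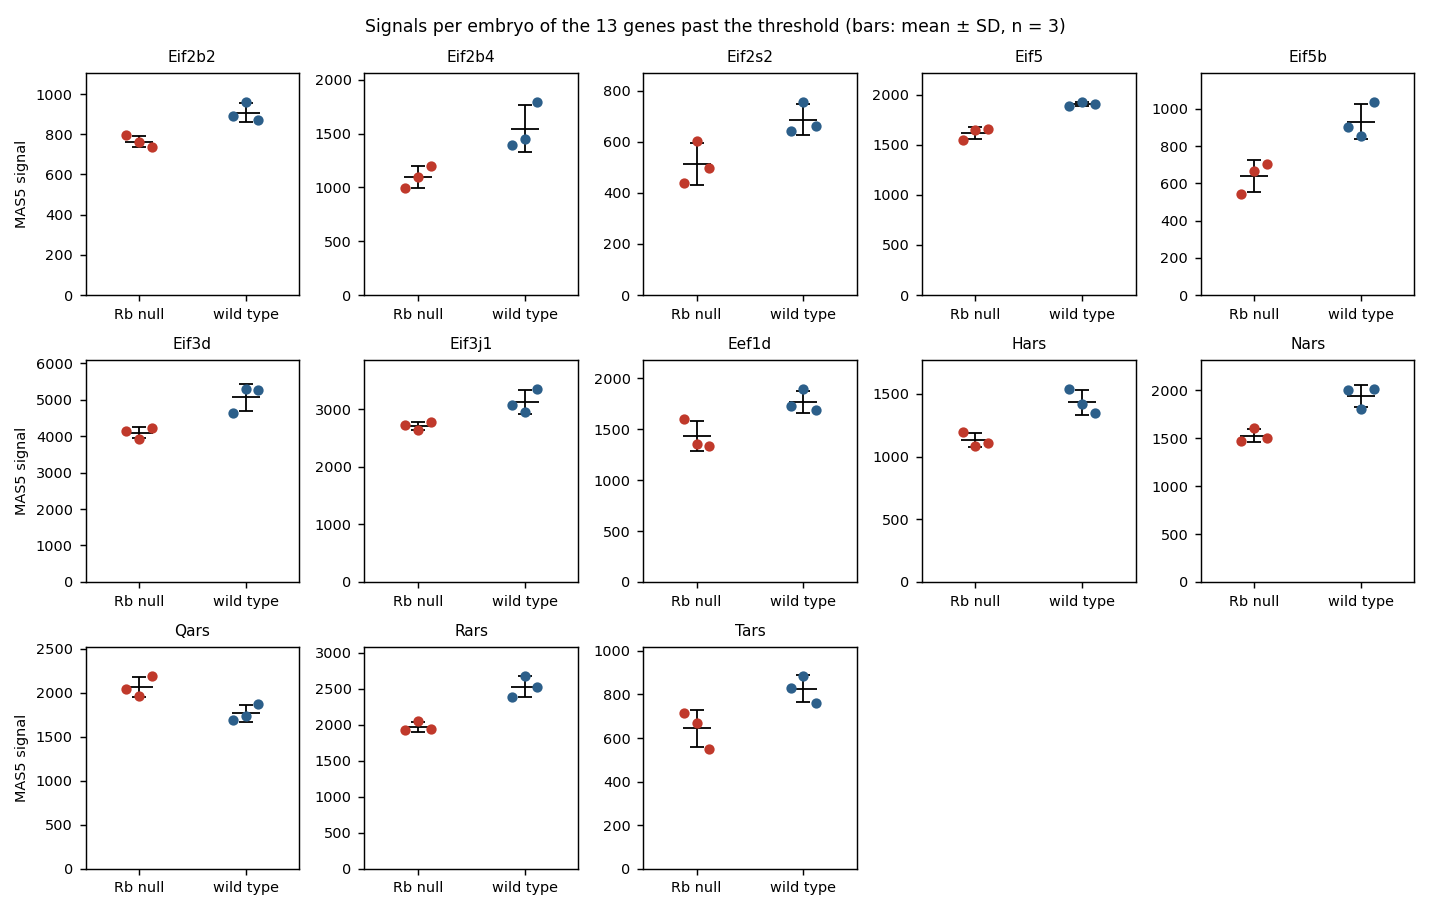
MAS5 signal (y axis, linear, from 0) of each embryo for the 13 genes past the threshold, Rb null left in red and wild type right in blue, with bars for mean ± SD (n = 3 embryos). The genotypes do not overlap in any of the 13 panels, and Rb null is above wild type in the Qars panel alone.

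The members that changed were mostly bright, and bright genes as a whole leaned lower in Rb null livers. In the brightest 1318 of all tested genes, with mean signals from 1296 to 17732, the median log2 difference was -0.09, and 24.6% fell and 8.57% rose. Of the group, 27 of 57 genes lay in that range, with a median of -0.13, and 7 of these fell and 1 rose. In the next 1318 genes, from 633 to 1296, all genes had a median of 0.02 and 8.95% fell, while 4 of 17 members fell (median -0.12). Between 313 and 633 there were 9 members, of which 1 fell, and of the 4 members below 313 none fell. The counts of members are therefore to be read against the level of equally bright genes, and the part of brightness in them was not tested.

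**Figure D4:**
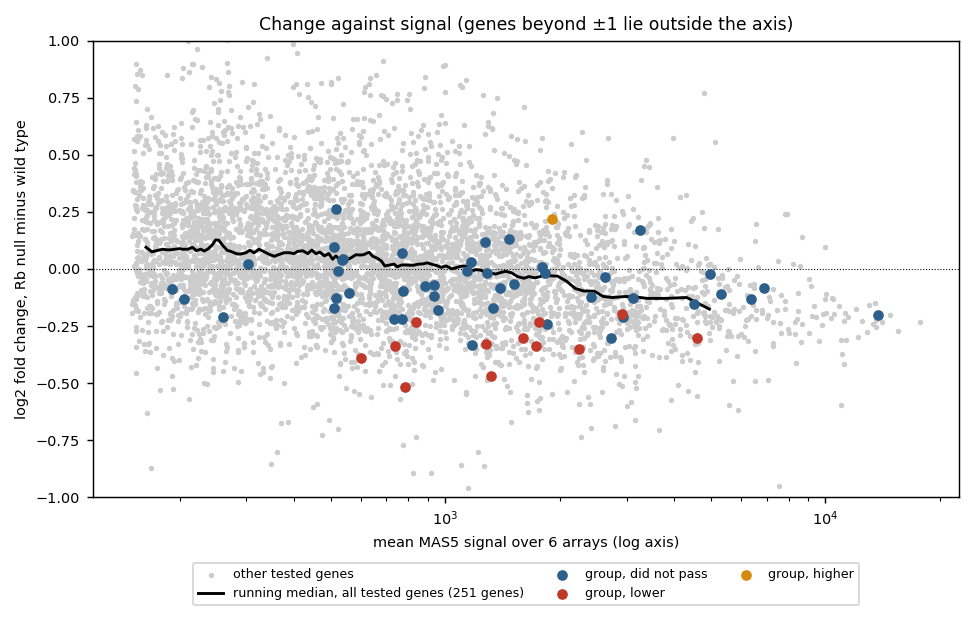
Log2 difference (Rb null minus wild type, y axis) against mean MAS5 signal over the 6 arrays (x axis, log scale) for all tested genes in grey and the 57 members in colour, with a running median of all tested genes in black. The black line falls below 0 among bright genes. Most of the members that fell lie below it, which largely follows from their being called for negative differences.

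Genes of other liver cell types moved in the same livers. Of 9 erythroid marker genes, all tested, 5 fell and none rose, and their summed signal was 60398 to 66075 in Rb null livers and 73867 to 80807 in wild type livers. The 8 hepatoblast markers had 2 falls and 1 rise, with sums of 36441 to 38956 in Rb null livers and 39144 to 42555 in wild type livers. Of 8 mesenchyme markers 4 of 6 tested rose, with sums of 11697 to 13447 in Rb null livers and 9316 to 9637 in wild type livers. Of 6 granulocyte markers 3 rose, with sums of 9093 to 9200 in Rb null livers and 6961 to 7041 in wild type livers. So the erythroid and hepatoblast totals were lower, and the mesenchyme and granulocyte totals were higher, in each Rb null liver than in any wild type liver. The hepatoblast total follows its brightest genes, since 5 of its 8 markers had positive differences (median 0.13). Most of the erythroid total comes from Hba-a1, Hbb-y and Hbb-b2, of which Hbb-b2 alone passed. Of the 9 erythroid markers 8 had negative differences. The marker counts here and in the next paragraph stand beside 9.50% fallen and 13.1% risen over all tested genes.

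Of 8 macrophage markers 2 of 7 tested rose, with sums of 4800 to 5298 in Rb null livers and 4360 to 4518 in wild type livers. Of 6 endothelial markers 2 of 5 tested rose, with sums of 4050 to 4492 in Rb null livers and 3330 to 3630 in wild type livers. These totals too were higher in each Rb null liver than in any wild type liver. Of 3 megakaryocyte markers 1 was tested and did not pass. Adgre1, Pecam1, Pdgfrb, Des, Itgb3 and Pf4 were below the filter. The part of cell makeup in the changes of translation genes was not tested.

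Many cytosolic synthetase genes are known targets of ATF4, the transcription factor whose mRNA is translated more when eIF2 is phosphorylated. Of 12 ATF4-dependent synthetases, all tested, none rose and 2 fell, Nars and Tars (median -0.13). Of the 6 tested among 7 other cytosolic synthetases, 1 rose and 2 fell (median -0.18). In the same livers, of 14 tested genes among ATF4 and its other known targets, 4 rose, 1 fell and 9 did not pass (median 0.02). Over all tested genes 9.50% fell and 13.1% rose. The counts of these short lists are given as a description, and the difference between the lists was not tested.

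Trib3, a pseudokinase induced by ATF4, read 464, 454 and 459.9 in Rb null livers, against 185, 148 and 187 in wild type livers (1.20 ± 0.10, limma adjusted p = 0.0003). Atf3 had 339, 312 and 353 in Rb null livers, against 159.7, 175 and 162 in wild type livers (0.83 ± 0.10, adjusted p = 0.0010). Atf5 had 1282, 1214 and 1126 in Rb null livers, against 752, 727 and 730.5 in wild type livers (0.67 ± 0.07, adjusted p = 0.00051). Atf3 and Atf5 encode transcription factors of the stress response. None of the 3 genes had overlapping genotypes, and the calls held under each alternative run for them. Ddit3 (0.42 ± 0.08) rose and Mthfd2, a mitochondrial folate enzyme, fell (-0.27 ± 0.05). Atf4 itself (0.02 ± 0.08) and Asns, the asparagine synthetase (-0.18 ± 0.08), did not pass. These 4 were named after their values were seen.

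The windows around the start sites of these synthetase genes were searched for the letters TGATGNAA on either strand, the core of the element to which ATF4 and a C/EBP partner bind. RefSeq windows on GRCm38.p6, from 250 bases before to 50 bases after the annotated start, were at hand for 50 of the 64 genes. The letters were in 5 of 12 cytosolic synthetase genes with a window (41.67%), against 4.13% of 17492 protein-coding genes and 3.97% of all 32851 windows. They are Aars, Gars, Iars, Tars and Yars, of which Tars fell and the others did not pass. Rars, Nars and Hars, the other cytosolic synthetase genes that fell, had no window and were not searched. In the factors the letters were in 1 of 33 genes, Eef2k. They were in 4 of 14 other ATF4 targets, Asns, Atf3, Slc7a11 and Trib3, of which Atf3 and Trib3 rose. The matches of the cytosolic synthetase genes are shown, with the 8 matched bases in capitals, 5′ to 3′ on the strand of the gene. Each of these 5 genes had a negative difference, from -0.02 for Gars to -0.34 for Tars.
Aars, chr8:111033700-111033767, plus strand: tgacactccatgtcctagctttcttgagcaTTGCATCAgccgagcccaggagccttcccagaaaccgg
Gars, chr6:55037941-55038008, plus strand: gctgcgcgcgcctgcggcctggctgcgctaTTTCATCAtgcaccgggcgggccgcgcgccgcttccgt
Iars, chr13:49682107-49682149, plus strand: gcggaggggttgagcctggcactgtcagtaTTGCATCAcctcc
Tars, chr15:11399639-11399703, minus strand: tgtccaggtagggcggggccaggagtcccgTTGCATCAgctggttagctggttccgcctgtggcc
Yars, chr4:129189876-129189922, plus strand: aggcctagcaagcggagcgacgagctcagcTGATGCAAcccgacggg
In Aars, Gars, Iars and Tars the letters lie on the opposite strand of the gene and so appear as their reverse complement. Aars holds a further match, which begins 10 bases after the annotated start and is not printed. A match is a description of the letters and shows neither binding nor a cause.

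Since Rb restrains E2F factors, the same windows were searched for TTTCCCGC, TTTCGCGC, TTTGCCGC and TTTGGCGC on either strand, spellings of the E2F site. They were in 6 of 50 members, against 3.29% of protein-coding genes, and in none of the 8 genes that fell and had a window. The 6 were Eef2k, Eif2d, Eif4enif1 and the mitochondrial synthetase genes Fars2, Rars2 and Sars2. Of the 5 that were tested, none passed. The letters CCGGAAGT, an ETS factor site known in promoters of housekeeping genes, were in 10 of 50 members, against 5.69% of protein-coding genes. Among the 8 windows of genes that fell they were in 3, those of Eif2b2, Eif2b4 and Eif3d. Both motifs were chosen after the values were seen. The matches of Eif2b4 and Eif3d are shown, since those genes fell, with the match in capitals.
Eif2b4, chr5:31193120-31193168, minus strand: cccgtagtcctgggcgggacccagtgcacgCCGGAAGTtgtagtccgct
Eif3d, chr15:77970858-77970925, minus strand: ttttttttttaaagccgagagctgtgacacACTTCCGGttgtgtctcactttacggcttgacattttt
Of the ETS matches in members that did not pass, those in Farsa and Mars1 belong to cytosolic synthetases, with differences of -0.12 ± 0.06 and -0.17 ± 0.07.

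Several elongation and initiation factor mRNAs begin with a C followed by pyrimidines, the terminal oligopyrimidine (TOP) tract through which mTOR and LARP1 are known to control their translation. Of 9 such mRNAs listed, 8 were on the array and 6 were tested, of which Eef1d fell, none rose and 5 did not pass (median -0.14). Among all tested genes 9.50% fell and 13.1% rose. A C followed by 4 pyrimidines, starting within 5 bases of the annotated start, was in 2 of the 5 listed genes with a window, against 21.54% of protein-coding genes. Both windows, 10 bases before to 20 bases after the annotated start with the run in capitals, are shown as examples of such a run. The runs begin 5 and 4 bases before the annotated start, so they are not shown to be the ends of the mRNAs.
Eef1a1, chr9:78481705-78481734, minus strand: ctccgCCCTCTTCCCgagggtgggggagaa
Eif3f, chr7:108934405-108934434, plus strand: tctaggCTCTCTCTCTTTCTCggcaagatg
Eef1a1 did not pass and Eif3f was too dim to test, as given above.

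Genes that regulate eIF2 and eIF4E did not share a direction. Of 8 genes for eIF4E-binding proteins, eIF2 kinases and eIF2 phosphatase subunits, 6 were tested, of which 2 rose, 1 fell and 3 did not pass. Among all tested genes 13.1% rose and 9.50% fell. Eif4ebp1, whose protein holds eIF4E away from eIF4G, read 862, 776 and 938 in Rb null livers, against 556, 542 and 564 in wild type livers. It rose by 0.59 ± 0.08 without overlap (limma adjusted p = 0.0022) and passed under all 17 alternatives. Eif2ak4, the kinase that senses uncharged tRNA, read 223, 278 and 207 in Rb null livers, against 149.8, 145 and 139 in wild type livers.

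The Eif2ak4 difference was 0.55 ± 0.12 (limma adjusted p = 0.016). Its wild type mean of 144 lay below the filter of 150.1, so it was tested only through its Rb null signals, the size of the difference is uncertain, and with the stricter filter it was not tested. The call ended when Rb null embryo 2 (0.055) or wild type embryo 3 (0.051) was removed, where the values are adjusted p. Eif2ak1, the haem-regulated kinase of erythroblasts, read 1296, 1326 and 1385 in Rb null livers, against 1884, 1740.5 and 1748 in wild type livers. It fell by 0.41 ± 0.06 (adjusted p = 0.0027) without overlap and under all 17 alternatives. Eif2ak1 is itself known to be abundant in erythroid cells, whose markers were lower in the same livers, as given above, and their part in this fall was not tested.

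Of 12 genes for termination, recycling and poly(A) binding, all tested, 2 rose, 5 fell and 5 did not pass (median -0.16). Over all tested genes 9.50% fell and 13.1% rose. Etf1, Pabpc4, Larp1 and Abce1, which fell, lay among the brightest 1318 tested genes, of which 24.6% fell. Pdcd4, an inhibitor of the eIF4A helicase, read 977, 1032 and 959.6 in Rb null livers, against 627, 660.0 and 682 in wild type livers (0.56 ± 0.07, limma adjusted p = 0.0011). Larp1, which binds TOP mRNAs, read 2037, 2286 and 2255 in Rb null livers, against 2675, 3460.0 and 2894 in wild type livers. It fell by 0.44 ± 0.10 (adjusted p = 0.014), a call that ended when Rb null embryo 1 was removed (0.056).

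Abce1, the ATPase that splits ribosomes after termination, read 1655, 1574 and 1485 in Rb null livers, against 1923, 1992 and 1882 in wild type livers. It fell by 0.29 ± 0.06 (limma adjusted p = 0.012), and this call, like that of Pdcd4, held under all 17 alternatives. The genotypes did not overlap for Pdcd4, Larp1 or Abce1. Dap (0.19 ± 0.05) also rose, and Pelo (-0.27 ± 0.08), Etf1 (-0.27 ± 0.05) and Pabpc4 (-0.25 ± 0.05) also fell. These 4 were named after their values were seen.

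**Figure D5:**
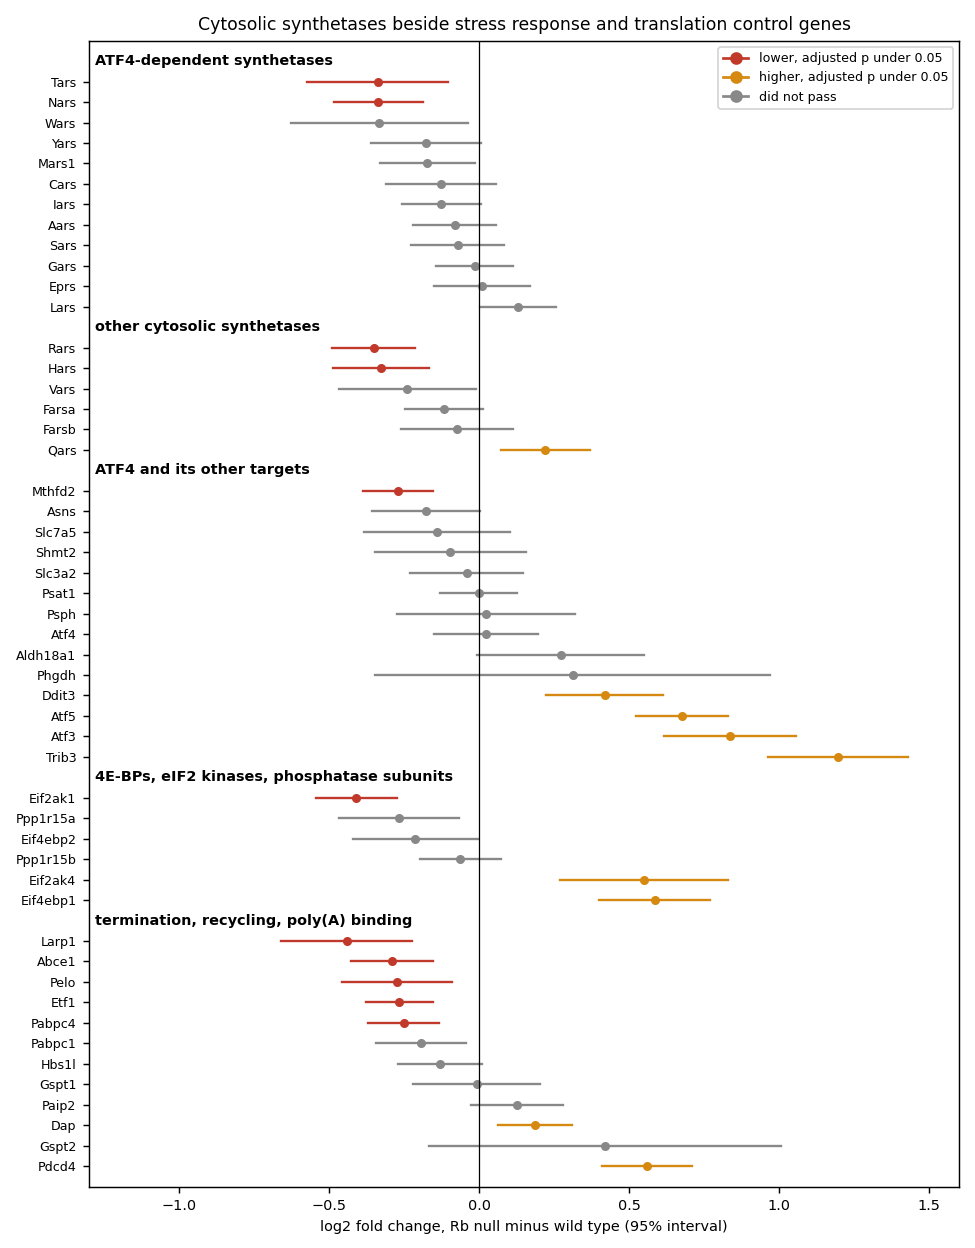
Log2 difference (Rb null minus wild type, x axis) with its 95% interval for the tested genes of 5 lists: ATF4-dependent and other cytosolic synthetases, ATF4 and its other targets, regulators of eIF4E and eIF2, and genes of termination, recycling and poly(A) binding. Red marks genes that fell, orange genes that rose and grey those that did not pass. Trib3, at 1.20, lies farthest to the right.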

How the data were processed

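The deposited values are MAS5 signal intensities on a linear scale, made by the authors per the submitters' processing notes, with no version stated. The 2% trimmed mean was about 500.2 on each array. Probe sets were named by the platform annotation (10833 with 1 symbol, 396 with several, 1193 with none), and 66 control probe sets were left out. Signals plus 50.02 were put on the log2 scale, and the 6793 probe sets with a mean signal above 150.1 were tested with limma 3.58.1 in R 4.3.3 (intensity trend, two-sided, Benjamini-Hochberg adjustment over those 6793). A gene was read by its brightest probe set. The procedure was tested on simulated data.

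The members and gene lists were chosen with earlier results of these data known. Genes named were those past the threshold, the brightest tested gene and the 2 smallest p values past no threshold in each role, genes whose probe sets disagreed, up to 3 changed genes per other list, and Rb1. Others are said to be named after their values were seen.

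Alternatives were quantile normalization, median scaling, cyclic loess, offsets of 10.0 and 150.1, no filter, a stricter filter of 500.2, no trend, the replicate number as a block, the mean of probe sets, no probe sets with suffix letters, and leaving out each embryo. Replicate numbers were not taken to pair embryos. Sequences are RefSeq windows of GRCm38.p6, searched in Python 3.11.15. Protein sequences were not used here.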

Additional observations from a re-analysis of the deposited data

How the results depend on the processing

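The 12 falls and 1 rise depended on scaling and on single embryos, and the median of -0.12 depended on scaling. Median scaling gave 31 falls and no rise (0) with a median of -0.25. It put the median of all tested genes at -0.10, where the deposited scaling has 0.02, and 25.1% of all calls upward, where the deposited scaling has 57.9%, and relative to all genes the group median was -0.15 under either scaling, but -0.09 after quantile normalization and -0.09 after cyclic loess. Quantile normalization gave 2 rises and 12 falls, of which 10 were shared, and cyclic loess 2 rises and 11 falls, of which 9 were shared, with a median of -0.10. The mean of probe sets also gave 2 rises. No filter and no trend each gave 0 rises and 7 falls. Leaving out an embryo gave 0 to 1 rises, 5 to 8 falls and medians from -0.13 to -0.11. Falls numbered 5 without wild type embryo 3 and 6 without Rb null embryo 2. They numbered 7 without wild type embryo 1, and 8 without each of the other 3. Over all tested genes 9.50% fell with every embryo kept and 4.86% to 8.14% with an embryo left out, so fewer genes passed there too. Same-numbered embryos deviated together little (r of -0.06, 0.05 and 0.27, and Rb null embryo 1 correlated best with wild type embryo 2, at 0.22), so the numbers do not pair them. The replicate block gave 1 rise and 12 falls, of which 11 were shared, with Eif2b2 (adjusted p = 0.056) lost and Eif1b (0.023) gained. The remaining settings (both offsets, the stricter filter, no suffix letters) gave 1 rise and 11 to 14 falls. Differences turned positive for uncalled genes after quantile normalization (Eef1a1 0.014, Eif3l 0.030, Eif4a2 0.046) and cyclic loess (Eef1a1 0.042, Eif3l 0.034, Eif4a2 0.036). Apart from the wider scaling shift, the cause was not tested. Of the 13 calls, those of Rars, Nars and Eif5b held without each single embryo, and the others, large and small, did not. Saturation and signal over background cannot be read from these values.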

Other observations

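Translation factor genes left out by the choice of symbols gave the following values. Eif1ax, the X-linked gene of the scanning factor eIF1A, read 1533, 1641 and 1657 in Rb null livers, against 2022, 1992 and 1956 in wild type livers on its brighter probe set (-0.30 ± 0.05, limma adjusted p = 0.0076). Another Eif1ax set had -0.15 ± 0.07 (adjusted p = 0.16). Eif2s3x, the X-linked gamma subunit of eIF2, read 4876, 4712 and 5147 in Rb null livers, against 5431, 5646 and 6146 in wild type livers and fell by 0.22 ± 0.06 (adjusted p = 0.038). Its Y-linked counterpart Eif2s3y had 211, 186 and 195 in Rb null livers, against 305, 239.5 and 234 in wild type livers, and did not pass (-0.32 ± 0.12, adjusted p = 0.091). A probe set shared by Eif4a3 and related genes had -0.10 ± 0.10 and did not pass. The labels do not give the sex of the embryos. The Eif2s3y probe set carries a suffix letter, so signal on it is not read as the sex of an embryo.

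Of 5 genes that modify translation factors or hold the synthetase complex together, 4 were tested and 1 fell, where 9.50% of all tested genes fell. The gene that fell was Aimp2, a scaffold protein of the complex that holds Rars, Qars, Mars1, Iars, Eprs and other synthetases. It read 1940.1, 2246 and 1966 in Rb null livers, against 2584, 2528 and 2373 in wild type livers (-0.28 ± 0.07, limma adjusted p = 0.026), and 7 of 17 alternatives ended the call. These included leaving out Rb null embryo 1 (adjusted p = 0.087), Rb null embryo 3 (0.066), wild type embryo 1 (0.079) or wild type embryo 2 (0.064). Aimp1, another scaffold protein, had -0.13 ± 0.06 and did not pass. Of the members of that complex named here, Rars fell, Qars rose, and Mars1, Iars and Eprs did not pass.

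Of 5 mitochondrial translation factors 4 were tested, and none passed (median -0.20). Each of the 4 differences was negative, at -0.25 ± 0.08 for Tsfm, -0.23 ± 0.07 for Mtif2, -0.17 ± 0.10 for Tufm and -0.12 ± 0.08 for Gfm1. Tsfm (adjusted p = 0.062) and Mtif2 (adjusted p = 0.052) lay just outside the limma threshold. The 5 mitochondrial synthetases, in comparison, had a median of 0.04, and the difference between the lists was not tested.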
